A study of Mus musculus with 16 samples.

Results

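Amiloride, a potassium-sparing diuretic that blocks epithelial sodium channels and sodium/proton exchangers, was compared with vehicle in the gastrocnemius of tumor-bearing mice. The comparison held the 4 AM and the 4 CAC libraries, chosen by their treatment labels, which are 8 of the 16 libraries of the study, and each library came from 1 mouse. Replicates 1 and 2 of both groups were C57BL/6 mice carrying LLC (Lewis lung carcinoma) tumors, and replicates 3 and 4 were BALB/c mice carrying CT26 (colon carcinoma) tumors. Strain and tumor line therefore changed together and cannot be told apart. All 8 mice received tumor cells under the skin of the flank on day 0. From day 9, AM mice were given amiloride at 2 mg/kg each day into the peritoneum, CAC mice were given PBS in the same way, and muscles were taken on day 30. The mice were adults, the labels name BALB/c mice of both sexes without saying which, and the time of day of collection is not given in the sources used here. Because the drug reached the whole animal, its actions on the tumor and on the muscle cannot be told apart in these libraries.

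The question was how the muscle transcriptome of a cachectic mouse differs when amiloride is given. In cachexia, muscle protein is broken down by the ubiquitin–proteasome system, in which E3 ligases tag proteins for the 26S proteasome, and by autophagy. Transcription factors of the FoxO and C/EBP families and the glucocorticoid receptor switch on many of these genes in wasting muscle, while the IGF/Akt/mTOR pathway favours growth. Around the fibers, fibroblasts maintain a collagen-rich matrix that carries force to the tendon.

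The libraries held 35913190 to 59807648 reads counted on genes. Muscle markers dominated all 8, and the 4 Y-linked genes looked up were read in each, with Ddx3y at 54.6 to 91.0 CPM (CPM are counts scaled by edgeR's TMM method to a common library size). The 4 summed to 115.7 to 176.9 CPM, so each library held RNA of a male. Some libraries stood apart. The summed level of 8 B cell markers was 5.418 and 6.693 CPM in CAC replicates 1 and 4 and 37.95 to 452.9 CPM in the other 6 mice. T cell markers followed, at 2.558 and 1.83 CPM against 20.72 to 208 CPM. Hepatocyte markers summed to 2950 CPM in AM replicate 1, where Alb alone had 1280 CPM, and to 62.63 to 503 CPM elsewhere. In CAC replicate 3, 7 skeletal muscle markers summed to 59820 CPM, below the 86050 to 143800 CPM of the others. Ifi202b, a gene whose level is known to differ between inbred strains, was read in CAC replicate 4, AM replicate 1 and AM replicate 3 (118 to 184 counts) and had 0 counts in the other 5. Gm10260 had 7654 to 19813 counts in the same 3 libraries and 48 to 100 in the others, and Gm11127 had 974 to 1323 against 0 to 5. This split does not follow the labelled strains, and whether a label was exchanged is not known. The part of these differences in the results was not tested, beyond 2 kinds of fit. These left out the libraries concerned or took a lymphocyte marker score, the mean level of the B and T cell markers, as a term. In whole muscle, fewer cells of a type and less RNA per cell cannot be told apart.

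Of 14674 genes tested, 239 (1.63%) were upregulated and 298 (2.03%) downregulated in AM mice. These 537 DEGs (3.66%) passed edgeR's quasi-likelihood test at a limit of 0.05 on the FDR, adjusted by Benjamini and Hochberg, and a 1.5-fold limit on the change. At any fold, 731 genes (4.98%) passed the FDR limit. Every AM mouse lay above every CAC mouse for 908 genes (6.19%) and below for 1391 (9.48%), and 3186 genes (21.7%) had an unadjusted p below 0.05, of which 1389 (9.47% of all) were higher and 1797 (12.2% of all) lower in AM mice. The median log2 fold change (AM minus CAC) over all genes was 0.007, so the medians of the gene lists below can be read against a value near 0. Without CAC replicates 1 and 4, the libraries with few lymphocyte transcripts, 7 genes were upregulated and 11 downregulated. With all mice kept and the lymphocyte marker score as a term, 201 were upregulated and 235 downregulated. Of 121 DEGs named or in the gene lists, 62 kept their call when each mouse was left out in turn, and those that lost it are given beside their values. Some of the 121 were picked in these data for separated groups, large changes or small FDR values. The share that kept its call among all 537 DEGs was not counted. With the labelled strain as a term in the fit, 29 of the 121 lost their call: Rps27, Kcng4, Dbp, Cilp2, Cdh4, Doc2b, Psmc4, Psmc6, Map1lc3b, Map1lc3a, Klf15, Foxo6, Akt1, Gamt, Casq1, Pkm, Slc37a4, Col11a1, Col15a1, Loxl1, Bmp1, Fmod, Pcolce, Sparc, Hspb7, Hspa1a, Cdh15, Col23a1 and Col6a6.

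**Figure D1:**
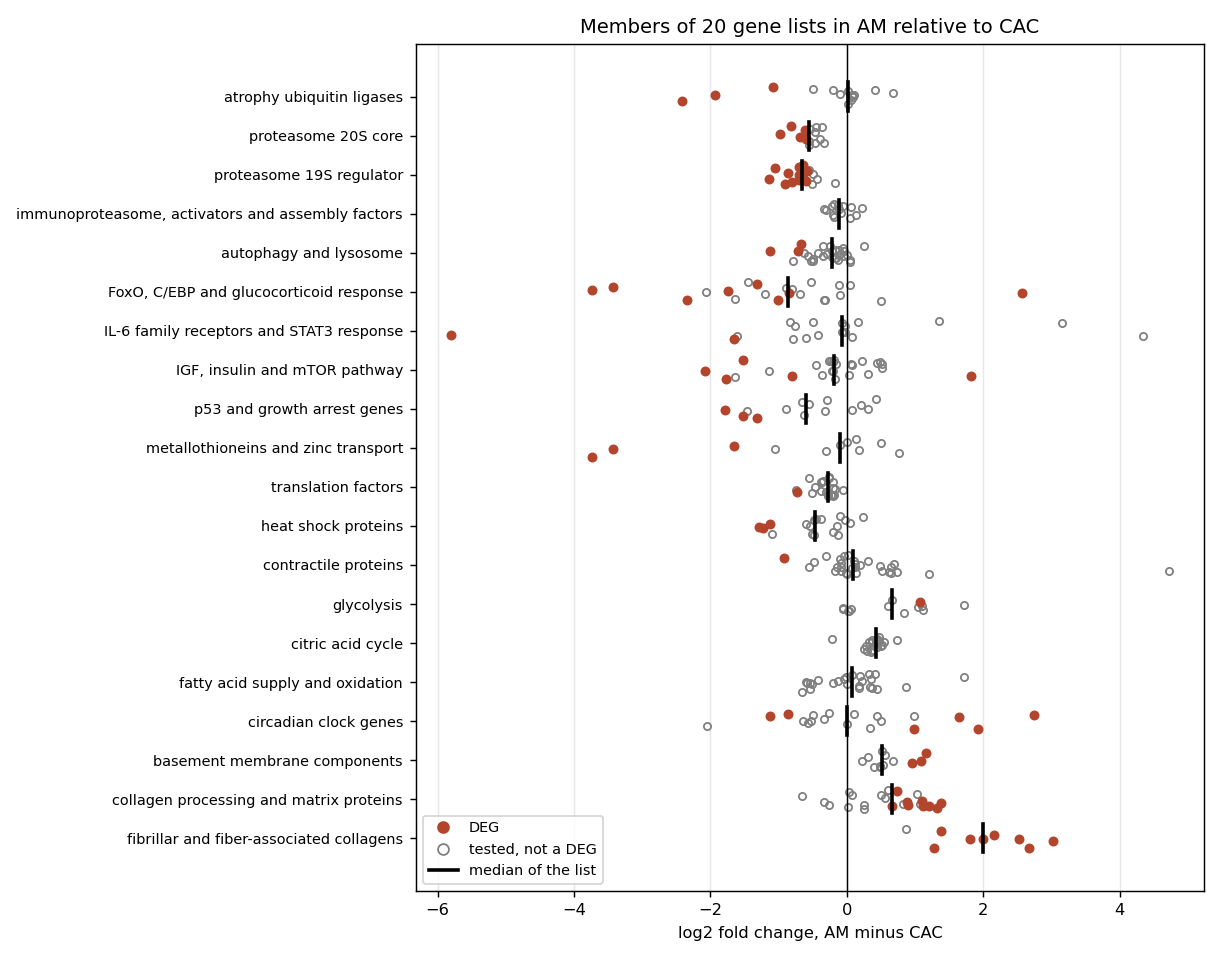
Log2 fold change (AM minus CAC, x axis) of each tested member of 20 gene lists (rows), with filled points for DEGs, open points for other tested genes and black bars for the list medians. Both proteasome lists lie wholly below 0 with medians of -0.55 and -0.66, and the fibrillar collagens lie wholly above 0 with a median of 1.99.

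Of 14 E3 ubiquitin ligases tied to muscle atrophy, 3 were downregulated DEGs and 0 were upregulated. Trim63 (MuRF1), which tags myofibrillar proteins, had 2829.9, 1795, 2089.8 and 1837 CPM in CAC replicates 1 to 4 and 348, 306, 378 and 566 CPM in AM replicates 1 to 4. The highest AM mouse stayed far below the lowest CAC mouse. Its log2 fold change was -2.42 ± 0.24 (SE, edgeR FDR = 0.00385). Fbxo32 (atrogin-1) fell from 805 to 1152 CPM to 209.9 to 331 CPM (log2 fold change -1.94 ± 0.19, edgeR FDR = 0.0032). Fbxo31, the substrate receptor of another SCF ligase, had 400.4, 311, 349 and 512 CPM in CAC mice and 189, 173, 195 and 188 CPM in AM mice (log2 fold change -1.08 ± 0.16, edgeR FDR = 0.0112). All 3 kept their calls with each mouse left out in turn. The median of the 14 was 0.02, 8 were higher and 6 lower in AM mice, and Ubr2, a ligase of the N-degron pathway, was lower with an unadjusted p below 0.05 but did not pass (log2 fold change -0.21 ± 0.0879, edgeR FDR = 0.21). Fbxo21, another F-box protein of wasting muscle, had 24.2 to 33.6 CPM in CAC mice and 29.6 to 67.3 CPM in AM mice (edgeR FDR = 0.148). Downregulated DEGs made up 2.03% of all genes tested.

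Trim63 lies at chr4:134315120-134329629 on the plus strand (GRCm38). Its upstream sequence is shown because Foxo1 and Foxo3 fell together with it, as given further on. The 250 bases before the RefSeq start, at chr4:134314870-134315119 (GRCm38.p6, plus strand), hold 1 match to the FoxO word GTAAACA, read on the other strand as TGTTTAC and printed in capitals, whose leading base is at position -194.
Trim63: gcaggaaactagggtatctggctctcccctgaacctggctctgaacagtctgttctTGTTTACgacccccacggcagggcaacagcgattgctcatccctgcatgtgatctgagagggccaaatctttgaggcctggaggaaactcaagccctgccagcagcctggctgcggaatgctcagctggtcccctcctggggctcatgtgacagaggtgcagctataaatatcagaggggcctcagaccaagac
The word, searched on both strands, was found in 1 of the 12 atrophy ligases with a sequence (8.33%) and in 3.54% of 27025 mouse promoters of the same length.

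The 26S proteasome is made of a 20S core that cuts proteins and a 19S regulator that recognises, unfolds and feeds in ubiquitin-tagged substrates. All 33 core and regulator genes had a negative log2 fold change, with a median of -0.60. In 29 of them every AM mouse was below every CAC mouse, as for 9.48% of all genes, and 31 had an unadjusted p below 0.05 in that direction, as for 12.2% of all genes. Downregulated DEGs were 5 of 14 core genes and 14 of 19 regulator genes, where 2.03% of all genes were. Psmd4, a ubiquitin receptor of the regulator, had 372, 363, 403 and 365 CPM in CAC mice and 199, 189, 168 and 165 CPM in AM mice. Groups were widely separated, with a log2 fold change of -1.06 ± 0.10 (edgeR FDR = 0.0032). Adrm1, another ubiquitin receptor, had 256, 231, 249 and 221 CPM against 143, 137, 137 and 129.7 CPM (log2 fold change -0.81 ± 0.0877, edgeR FDR = 0.00506). Psmd2, a scaffold subunit of the regulator base, had 448 to 589 CPM in CAC mice and 266 to 315 CPM in AM mice (edgeR FDR = 0.00952). The ATPase gene Psmc2 had 193 to 258 CPM in CAC mice and 121 to 133 CPM in AM mice (edgeR FDR = 0.00762).

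In the core, Psma4, an alpha-ring subunit, had 142, 149, 158 and 126 CPM in CAC mice and 80.9, 80.5, 86.3 and 79.4 CPM in AM mice (log2 fold change -0.81 ± 0.0934, edgeR FDR = 0.00561). Psma7 of the same ring and Psmb3 of the beta ring had log2 fold changes of -0.98 and -0.68 (edgeR FDR = 0.0104 and 0.0105). Psmd8, a regulator subunit, had the most negative value of the 33, -1.14 ± 0.22 (edgeR FDR = 0.0283), and was lower in CAC replicate 4 than in the other CAC mice, at 371, 399, 399 and 212 CPM. Psmd12 spanned 118 to 131 CPM in CAC mice and 74.8 to 89.6 CPM in AM mice. CAC replicate 4 was the lowest CAC mouse for Psmc4, at 146, 154, 175 and 107 CPM against 85.1, 91, 90.1 and 92.4 CPM in AM mice, and for Psmc6, at 157, 145, 143 and 99.1 CPM against 80.5, 85.6, 86.6 and 87.2 CPM, yet stayed above every AM mouse. Of 14 immunoproteasome subunits, activators and assembly factors 0 were DEGs, beside 3.66% of all genes, and the median was -0.12. In AM mice 10 were lower, and 3 of these had an unadjusted p below 0.05, beside 12.2% of all genes. In 4 every AM mouse was below every CAC mouse, beside 9.48% of all genes. Nfe2l1, counted in this list, is the transcription factor that raises proteasome genes when the proteasome is short. It had 173 to 183 CPM in CAC mice and 122 to 156 CPM in AM mice (edgeR FDR = 0.108). The difference between this list and the 33 genes was not tested.

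The count of 19 subunits called depended on the libraries. It was 10 without CAC replicate 1, 12 without CAC replicate 2, 12 without AM replicate 1 and 25 without CAC replicate 4. Psmb4 lost its call without CAC replicates 1 or 2 or AM replicate 2 (FDR up to 0.0556). Psmd12, without CAC replicates 1 or 2 or AM replicate 1, and Psma3, without CAC replicate 1 or AM replicate 1, fell under the fold limit (FDR up to 0.0433 and 0.0352). Psmc1 lost its call without CAC replicate 1 (FDR = 0.0518), Psmd1 without CAC replicates 1 or 2 or AM replicates 1 or 4 (up to 0.0541), and Psmc3 without CAC replicates 1 or 2 or AM replicates 1, 2 or 3 (up to 0.0617). Psmd8 lost its call without any mouse but CAC replicate 4 and AM replicate 2 (up to 0.0848), and Psmc4 and Psmc6 without any but CAC replicate 4 (up to 0.0877 and 0.0919). With the lymphocyte marker score as a term 18 were called, and 0 without CAC replicates 1 and 4.

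**Figure D2:**
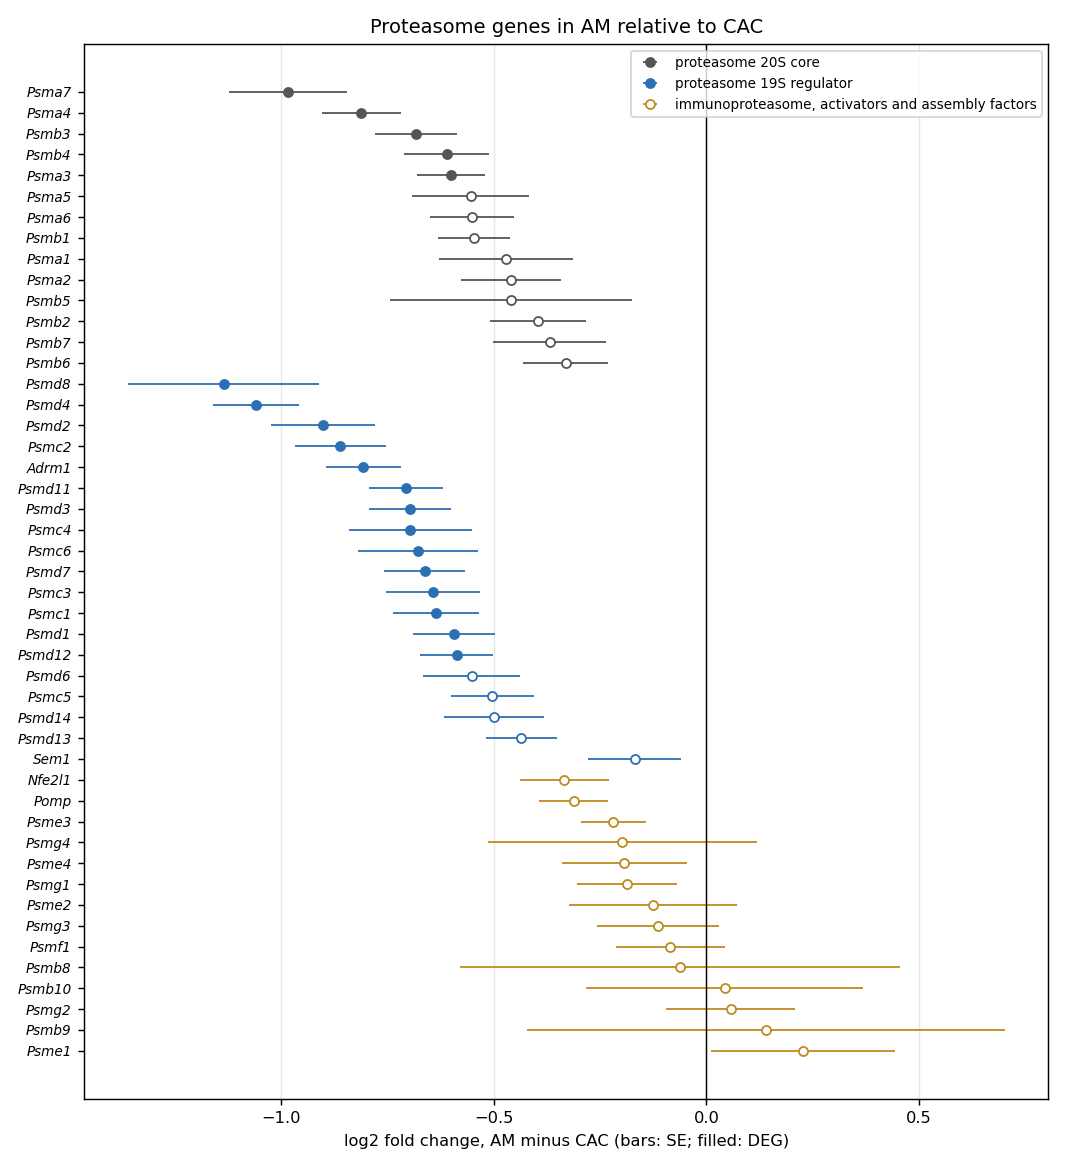
Log2 fold change (AM minus CAC, x axis) of each proteasome gene (rows), with bars for the SE and filled points for DEGs, in 3 colours for the 20S core, the 19S regulator and the immunoproteasome, activators and assembly factors. All 33 core and regulator genes lie below 0, 19 of them filled, and the 14 others include no filled point.

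Adrm1 is shown because it is among the few proteasome genes whose promoter holds the word searched for. The 250 bases before its RefSeq start, at chr2:180171338-180171587 (GRCm38.p6, plus strand), hold 1 match to TGACNNNGC, the core of antioxidant-response and Nfe2l1/Nfe2l2-bound elements, printed in capitals and starting at position -162.
Adrm1: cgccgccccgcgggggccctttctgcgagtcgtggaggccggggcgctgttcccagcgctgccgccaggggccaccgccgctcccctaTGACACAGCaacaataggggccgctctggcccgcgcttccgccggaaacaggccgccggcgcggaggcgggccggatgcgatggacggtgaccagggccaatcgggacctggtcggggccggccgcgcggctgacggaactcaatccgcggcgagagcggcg
On either strand the word was in 5 of 27 core and regulator genes with a sequence (18.5%), namely Adrm1, Psmb5, Psmb6, Psmc6 and Psmd12, and in 11.5% of all promoters. The windows of Psmd8, Psmd4, Psma7, Psmc2, Psmd2 and Psmb4 held 0 matches. With 5 genes this is a description of the window.

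Of 17 genes that make ubiquitin or activate it, 1 was downregulated, beside 2.03% of all genes. Ubb, a polyubiquitin gene, had 1786, 1439.8, 1499.5 and 1317 CPM in CAC mice and 887, 1007, 823 and 890.1 CPM in AM mice (log2 fold change -0.74 ± 0.14, edgeR FDR = 0.0224). This call was lost without any mouse but CAC replicates 3 and 4 (FDR up to 0.0719). Autophagy and lysosome genes gave 3 downregulated DEGs of 29, beside 2.03% of all genes, and a median of -0.22. Of these members 26 were lower, as were 7205 of all 14674 genes. Bnip3, a mitophagy receptor, had 409, 350.3, 381 and 370.4 CPM in CAC mice and 140, 184, 190.3 and 176 CPM in AM mice (log2 fold change -1.13 ± 0.12, edgeR FDR = 0.005). Map1lc3b and Map1lc3a, which encode LC3 proteins of the autophagosome membrane, had log2 fold changes of -0.72 ± 0.14 and -0.67 ± 0.13 (edgeR FDR = 0.0264 and 0.03). Bnip3 kept its call with each mouse left out, Map1lc3b lost it without any mouse but CAC replicates 2 and 3 (FDR up to 0.0798), and Map1lc3a without any but CAC replicate 3 (up to 0.0899). With the labelled strain as a term 1 of the 3 was called.

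Genes of the FoxO, C/EBP and glucocorticoid response, the transcriptional arm of muscle wasting, gave 7 downregulated and 1 upregulated DEG of 22, beside 2.03% and 1.63% of all genes, with a median of -0.87. Every AM mouse was below every CAC mouse for 10 of them, as for 9.48% of all genes. Foxo1 had 154, 143, 129 and 137 CPM in CAC mice and 61.4, 47.3, 57.5 and 59.2 CPM in AM mice, with little spread in either group (log2 fold change -1.32 ± 0.11, edgeR FDR = 0.00223). Foxo3 had 90.2 to 119 CPM in CAC mice and 52.2 to 68 CPM in AM mice (log2 fold change -0.84 ± 0.12, edgeR FDR = 0.011). Foxo6 went the other way from a low level, at 0.454 to 1.76 CPM in CAC mice and 3.47 to 11.3 CPM in AM mice (log2 fold change 2.57 ± 0.51, edgeR FDR = 0.0276). Cebpd, a C/EBP factor raised by inflammation and glucocorticoids, had a log2 fold change of -2.35 ± 0.22 (edgeR FDR = 0.0032), and the AM mice, at 65.2, 61.6, 65.5 and 89.4 CPM, were all below the lowest CAC mouse.

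Fkbp5, a glucocorticoid receptor co-chaperone and a sensitive target of that receptor, had 311, 326, 172 and 216 CPM in CAC mice and 79.6, 54.7, 88.2 and 82.8 CPM in AM mice (log2 fold change -1.75 ± 0.24, edgeR FDR = 0.00956). In CAC mice it was higher in replicates 1 and 2 than in replicates 3 and 4. Klf15, a glucocorticoid target that promotes amino acid breakdown, had 105 to 141 CPM in CAC mice and 44.7 to 80.2 CPM in AM mice (edgeR FDR = 0.0254). The other downregulated members of the list were Mt1 and Mt2, given in the next paragraph. Some glucocorticoid targets did not pass the FDR limit. Tsc22d3 (GILZ) had 702, 625, 385 and 398 CPM against 148, 122, 172 and 332 CPM (edgeR FDR = 0.0524), and AM replicate 4 was the highest AM mouse. Zbtb16 had 123 to 193 CPM in CAC mice and 40.1 to 98.4 CPM in AM mice (edgeR FDR = 0.0753), and Ddit4, an mTOR inhibitor, had 413, 302, 267 and 336 CPM against 79.9, 54, 44.6 and 242 CPM (edgeR FDR = 0.106). Without AM replicate 4 Tsc22d3 and Ddit4 were called. Klf15 lost its call without CAC replicates 1 or 2 or AM replicates 1, 2 or 3 (FDR up to 0.0733), and Foxo6 without CAC replicates 1 or 4 or AM replicates 2, 3 or 4 (up to 0.0727). Foxo1, Foxo3, Cebpd and Fkbp5 kept theirs.

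Metallothioneins, small cysteine-rich proteins that bind zinc and copper, had some of the most negative log2 fold changes. Mt2 had 157, 155, 189 and 609 CPM in CAC mice and 17.6, 12.2, 33 and 20.3 CPM in AM mice, and Mt1 had 194, 178, 259.8 and 1032 CPM against 30.5, 34.1, 44.6 and 45.5 CPM. CAC replicate 4 was far above the other CAC mice for both genes, and all AM mice were below every CAC mouse. Log2 fold changes were -3.74 ± 0.56 and -3.43 ± 0.61 (edgeR FDR = 0.012 and 0.0202), and without CAC replicate 4 they were -2.997 and -2.44. Slc39a14, the zinc and iron importer ZIP14, fell with them, from 36 to 110.4 CPM to 15 to 23 CPM (log2 fold change -1.66 ± 0.33, edgeR FDR = 0.0281). The other 8 genes of metallothioneins and zinc transport gave no DEG, and 2.03% of all genes were downregulated. Mt2 kept its call with each mouse left out. Mt1 lost it without any 1 AM mouse (FDR up to 0.0662), and Slc39a14 without any mouse but CAC replicates 2 and 4 (up to 0.0799).

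Mt1 and Mt2 are neighbours on chromosome 8, at chr8:94179082-94180327 and chr8:94172664-94173568 (GRCm38). The Mt2 promoter is shown because it is among the few with 5 matches to TGCNCNC. This word is looser than the core of metal-response elements, the sites of the zinc-sensing factor Mtf1. A match need not be such an element. The 250 bases before the RefSeq start, at chr8:94172368-94172617 (GRCm38.p6, plus strand), hold those 5 on either strand, in capitals, that begin at -223, -178, -128, -113 and -50.
Mt2: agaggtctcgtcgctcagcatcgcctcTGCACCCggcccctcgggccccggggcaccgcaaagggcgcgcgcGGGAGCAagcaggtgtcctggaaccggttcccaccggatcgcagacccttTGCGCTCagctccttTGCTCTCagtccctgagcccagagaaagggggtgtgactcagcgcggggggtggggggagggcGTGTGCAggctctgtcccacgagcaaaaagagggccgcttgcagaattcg
At least 1 match was found in 47.2% of all mouse promoters of this length and at least 5 in 0.392%. The Mt1 promoter held 1 match. This word was chosen after the values of Mt1 and Mt2 had been seen.

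Of 19 tested genes of IL-6 family receptors and the STAT3 response, 2 were downregulated, beside 2.03% of all genes. Saa3, an acute-phase serum amyloid made outside the liver, had 8.14, 3.44, 40.9 and 16.6 CPM in CAC mice and 0.305, 0.202, 0.6 and 0.112 CPM in AM mice (log2 fold change -5.80 ± 0.90, edgeR FDR = 0.0137), the most negative value of all genes tested. CAC replicate 3 was the highest CAC mouse, and leaving it out gave a value of -4.92 on the log2 scale. Il6ra, the ligand-binding chain of the IL-6 receptor, had 51.1, 68, 84.7 and 73.1 CPM against 30.1, 18.4, 20 and 19.5 CPM (log2 fold change -1.65 ± 0.21, edgeR FDR = 0.00762). Both kept their calls with each mouse left out. Stat3, the transcription factor of this pathway, overlapped between groups at 164, 149, 171 and 301 CPM and 169, 152, 150.2 and 116 CPM, with 1 high CAC mouse. So did Socs3, its feedback inhibitor, at 28.7, 23.3, 48.5 and 80.5 CPM and 30.7, 36, 23.2 and 14.8 CPM. The median of the list was -0.07. In the NF-kappaB and TWEAK list, 2 of 14 genes were downregulated, beside the same 2.03%: Nfkbib, an inhibitor of NF-kappaB, with 72.6 to 89.1 CPM in CAC mice and 33.4 to 45.5 CPM in AM mice (edgeR FDR = 0.00762), and Tnfrsf12a (Fn14), the TWEAK receptor, with 35 to 63.3 CPM in CAC mice and 12.7 to 25.5 CPM in AM mice (edgeR FDR = 0.0257). Tnfrsf12a lost its call without CAC replicates 2 or 3 or AM replicates 1, 2 or 4 (FDR up to 0.0685). The STAT word TTCCNGGAA was in the 250 bases before 1 of 18 genes of the IL-6 list with a sequence and in 1.09% of all promoters.

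In the IGF, insulin and mTOR list, 4 genes were downregulated and 1 upregulated of 26, beside 2.03% and 1.63% of all genes. Eif4ebp1 (4E-BP1), which holds back cap-dependent translation, had 278, 258, 464 and 445 CPM in CAC mice and 84.4, 105, 84.6 and 68.1 CPM in AM mice (log2 fold change -2.08 ± 0.24, edgeR FDR = 0.00552). Among CAC mice it was higher in replicates 3 and 4. Pik3r1, the regulatory subunit of PI3 kinase, had 229, 272, 244 and 176 CPM against 61, 61, 82.8 and 66.2 CPM (log2 fold change -1.77 ± 0.16, edgeR FDR = 0.00316). Sesn1, a sestrin that restrains mTORC1 and also a p53 target, had 105 to 202 CPM in CAC mice and 45.5 to 53.7 CPM in AM mice (log2 fold change -1.53 ± 0.19, edgeR FDR = 0.00762). Akt1 had 177 to 283 CPM in CAC mice and 119 to 145 CPM in AM mice (edgeR FDR = 0.0392). Igfbp5, a secreted IGF-binding protein, rose from 106 to 334 CPM to 529 to 972 CPM (log2 fold change 1.82 ± 0.34, edgeR FDR = 0.0241). Eif4ebp1, Pik3r1 and Sesn1 kept their calls, Akt1 lost its call without any mouse but CAC replicate 2 (FDR up to 0.107), and Igfbp5 without CAC replicates 1 or 4 or AM replicates 1, 3 or 4 (up to 0.0727).

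Among 14 p53 and growth arrest genes, 3 were downregulated, beside 2.03% of all genes, with a median of -0.60. Eda2r, a TNF family receptor and p53 target, had 90.9, 68.8, 73.3 and 66.7 CPM in CAC mice and 23.5, 28.9, 18.8 and 15.9 CPM in AM mice (log2 fold change -1.78 ± 0.20, edgeR FDR = 0.0053). Gadd45a, a growth arrest gene of denervated and wasting muscle, had 79, 58.8, 56.1 and 49.6 CPM against 21, 27.5, 25.9 and 23.1 CPM (log2 fold change -1.32 ± 0.16, edgeR FDR = 0.00695). The third was Sesn1, given above, and all 3 kept their calls with each mouse left out. Cdkn1a (p21) had 77.5, 49.2, 118 and 201 CPM against 40.9, 41.8, 24.5 and 54.6 CPM and did not pass (edgeR FDR = 0.0886). In the myostatin and activin pathway 1 of 21 genes was upregulated, beside 1.63% of all genes, and the list median was -0.25. This was Bmp7, a ligand of the opposing BMP branch, which rose from 0.73 to 0.905 CPM to 1.59 to 3.2 CPM (edgeR FDR = 0.0228) and lost its call without any mouse but CAC replicate 4 and AM replicate 1 (FDR up to 0.0727).

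Translation factors were lower in 22 of 22 cases with a median of -0.27, and 1 passed as a downregulated DEG, beside 2.03% of all genes. Eif1, which guards start-codon choice, had 607, 581, 566 and 551 CPM in CAC mice and 328, 374, 356 and 335 CPM in AM mice (log2 fold change -0.73 ± 0.0958, edgeR FDR = 0.00937) and kept its call with each mouse left out. Heat shock proteins gave 3 downregulated DEGs of 18, beside 2.03% of all genes, and a median of -0.47. Hspb1, a small heat shock protein that protects the cytoskeleton, had 359, 539, 386 and 425 CPM against 166, 211, 175 and 234 CPM (log2 fold change -1.12 ± 0.17, edgeR FDR = 0.012). Hspb7 of the same family had 1034 to 1900.5 CPM in CAC mice and 458 to 849 CPM in AM mice (edgeR FDR = 0.0352), and Hspa1a, an inducible Hsp70, had 36 to 81.2 CPM in CAC mice and 18.7 to 28.4 CPM in AM mice (edgeR FDR = 0.0452). Hspa1a shares most of its sequence with Hspa1b, so its own value is uncertain. Hspb7 lost its call without any mouse but CAC replicate 3 and AM replicate 2 (FDR up to 0.102), and Hspa1a without any but CAC replicate 3 (up to 0.119). With the labelled strain as a term 1 of the 3 was called. The integrated stress and unfolded protein response gave 0 DEGs of 20. Atf4, its central transcription factor, had 290, 272, 337 and 316 CPM against 207, 191, 214 and 209 CPM, without overlap (edgeR FDR = 0.0202), but its log2 fold change of -0.57 ± 0.10 was under the fold limit. The 20 glutathione and antioxidant genes and the 18 proliferation genes gave 0 DEGs as well, with medians of -0.26 and 0.29.

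Of 30 contractile protein genes 1 was a downregulated DEG, beside 2.03% of all genes, and 0 were upregulated. Log2 fold changes ran from -0.92 to 4.72 with a median of 0.09. Des (desmin), the intermediate filament that ties myofibrils together, had 6570.5, 6042, 5538 and 7977 CPM in CAC mice and 3634, 3677, 3316 and 3169 CPM in AM mice (log2 fold change -0.92 ± 0.16, edgeR FDR = 0.0205), and lost its call without CAC replicate 1 or any AM mouse (FDR up to 0.0723). The myosin heavy chains of fast and slow fibers did not pass. Myh4 (IIB) had 36755, 29883, 13319 and 12816 CPM against 33539, 38393, 39609 and 38815 CPM, where CAC replicates 3 and 4 were low. Myh1 (IIX), Myh2 (IIA) and Myh7 (slow) had log2 fold changes of 0.11 ± 0.22, 0.12 ± 0.36 and 0.14 ± 0.36. Actc1, the cardiac actin, was the most variable of the list, with 27.9, 32, 6.83 and 6.97 CPM in CAC mice and 39.6, 356, 108 and 1433 CPM in AM mice. Each AM mouse was above each CAC mouse, but the FDR was 0.0588 in edgeR's test. Acta1, the skeletal actin, had 13395 to 33553 CPM in CAC mice and 34858 to 46354 CPM in AM mice.

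Of 20 excitation and calcium handling genes 1 was upregulated, beside 1.63% of all genes. Casq1, the calcium store protein of the sarcoplasmic reticulum, had 977, 1189, 387 and 543 CPM in CAC mice and 1556, 2272, 2649 and 3735 CPM in AM mice (log2 fold change 1.72 ± 0.40, edgeR FDR = 0.0484). Replicates 3 and 4 were the low mice in CAC and the high mice in AM, and the call was lost with any 1 of the 8 mice left out (FDR up to 0.115). Jph2, which joins the reticulum to the T-tubule, had 158 to 379.6 CPM in CAC mice and 444 to 643 CPM in AM mice and did not pass (edgeR FDR = 0.0671). Of 17 acetylcholine receptor and denervation genes, 1 was downregulated and 1 upregulated, beside 2.03% and 1.63% of all genes. Myf6 (MRF4), a muscle regulatory factor of mature fibers, had 326, 256, 243 and 249.6 CPM against 73, 82.7, 97.4 and 96.3 CPM (log2 fold change -1.62 ± 0.14, edgeR FDR = 0.00223). Hdac9, a histone deacetylase that represses denervation genes, had 4.83 to 6.48 CPM in CAC mice and 9.4 to 11.7 CPM in AM mice (edgeR FDR = 0.0163). Myf6 kept its call, and Hdac9 lost it without CAC replicate 1 or AM replicates 3 or 4 (FDR up to 0.0546). Cdh15 (M-cadherin), in the satellite cell list, fell from 51.8 to 76.8 CPM to 28.1 to 46.3 CPM (edgeR FDR = 0.0457), a call lost without any mouse but AM replicate 1 (FDR up to 0.119).

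Energy metabolism gave few DEGs beside medians above 0. Of 13 glycolysis genes 11 were higher in AM mice with a median of 0.66. In 8 of these the unadjusted p was below 0.05, as for 9.47% of all genes in that direction, and 1 was a DEG, where 1.63% of all genes were upregulated DEGs. Pkm, pyruvate kinase, had 1761, 2189, 1246 and 1165 CPM in CAC mice and 2627, 3032, 3668 and 4025 CPM in AM mice (log2 fold change 1.07 ± 0.24, edgeR FDR = 0.045), and lost its call without any mouse but CAC replicate 2 (FDR up to 0.115). Tpi1 had 594 to 1350.1 CPM in CAC mice and 1463 to 2512 CPM in AM mice, Pgk1 299 to 525 CPM in CAC mice and 550.2 to 856 CPM in AM mice and Eno3 835 to 2290.5 CPM in CAC mice and 2527 to 4273 CPM in AM mice, and their FDR by edgeR was 0.0608, 0.0559 and 0.0758. In each of the 3 the lowest AM mouse was above the highest CAC mouse. Citric acid cycle genes were higher in 18 of 19 cases with a median of 0.42. In 12 of these the unadjusted p was below 0.05, beside 9.47% of all genes, in 7 every AM mouse was above every CAC mouse, beside 6.19% of all genes, and 0 were DEGs. Fatty acid supply and oxidation (25 genes) and ketone body metabolism (8 genes) gave 0 DEGs and medians of 0.08 and 0.19. Pdk4, which blocks pyruvate entry into the cycle, overlapped between groups at 1503, 406, 596 and 1505 CPM and 321, 698, 675 and 861 CPM.

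Glycogen metabolism had 1 DEG in each direction among 14 genes, beside 1.63% of all genes upregulated and 2.03% downregulated, and the same shares stand beside the next counts. Ugp2, which makes UDP-glucose for glycogen, had 728, 733, 741 and 841 CPM in CAC mice and 309, 358, 397 and 369.7 CPM in AM mice (log2 fold change -1.09 ± 0.12, edgeR FDR = 0.005). Slc37a4, the glucose-6-phosphate transporter, had 20.1 to 38.2 CPM in CAC mice and 57.6 to 119 CPM in AM mice (log2 fold change 1.67 ± 0.31, edgeR FDR = 0.0228), and lost its call without CAC replicates 1, 3 or 4 or AM replicates 3 or 4 (FDR up to 0.0679). In amino acid metabolism 1 of 18 genes was called. Glul (glutamine synthetase), through which muscle exports nitrogen, had 1627, 1344, 1214 and 1341 CPM against 440.1, 389.7, 461 and 456 CPM (log2 fold change -1.66 ± 0.13, edgeR FDR = 0.00223). The 4 AM mice lay close together. Gamt, which completes creatine synthesis, was upregulated among 16 polyamine and creatine genes, with 2.45 to 5.88 CPM in CAC mice and 9.26 to 18.5 CPM in AM mice (log2 fold change 1.74 ± 0.32, edgeR FDR = 0.0238), and lost its call without CAC replicates 2 or 4 or AM replicates 2, 3 or 4 (FDR up to 0.0702). Amd1 and Smox, of polyamine synthesis and oxidation, had log2 fold changes of 1.74 ± 0.56 and 1.71 ± 0.53 and did not pass (edgeR FDR = 0.115 and 0.105). Ugp2 and Glul kept their calls with each mouse left out.

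Fibrillar and fiber-associated collagens were higher in AM mice for all 9 members tested, and 8 were upregulated DEGs, where 1.63% of all genes were. The list median was 1.99. Col1a1, which encodes the main chain of type I collagen, had 68.3, 54.6, 41 and 61.3 CPM in CAC mice and 418, 288, 583 and 542 CPM in AM mice (log2 fold change 3.02 ± 0.26, edgeR FDR = 0.00223). Its partner chain Col1a2 had 117, 113, 71.9 and 112 CPM against 561, 354, 762 and 706 CPM (log2 fold change 2.52 ± 0.27, edgeR FDR = 0.005). Col3a1 of type III collagen had 171, 102, 95.5 and 100.4 CPM against 793, 531, 755 and 903 CPM (log2 fold change 2.67 ± 0.25, edgeR FDR = 0.00316). No AM mouse came near a CAC mouse for these 3, and AM replicate 2 was the lowest AM mouse. Col5a1 and Col5a2, whose chains set fibril diameter, had log2 fold changes of 1.99 ± 0.16 and 1.28 ± 0.11 (edgeR FDR = 0.00223 for each). Col14a1, which coats fibrils, had 8.86 to 17.5 CPM in CAC mice and 29.1 to 45.7 CPM in AM mice (edgeR FDR = 0.0163). Col12a1, of the same class, overlapped between groups at 11.4 to 13.5 CPM in CAC mice and 12.9 to 31.7 CPM in AM mice (edgeR FDR = 0.0942). Col5a3 lost its call without CAC replicate 1 (FDR = 0.0562), Col14a1 without CAC replicate 1 or AM replicate 3 (up to 0.0541), and Col11a1 with any 1 of the 8 mice left out (up to 0.12). The count of 8 was 4 without CAC replicates 1 and 4.

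Over all collagen chain genes, a family gathered by symbol after these values had been seen, 17 of 41 were upregulated DEGs, beside 1.63% of all genes, and the median was 1.28. In AM mice 38 were higher, as were 7469 of all 14674 genes. The chains of collagen VI, which links the fiber's basement membrane to the interstitial matrix, were among them. Col6a1 had 56, 64.6, 45.9 and 66.2 CPM in CAC mice and 189.8, 170.3, 202 and 266 CPM in AM mice (log2 fold change 1.83 ± 0.17, edgeR FDR = 0.0032). Col6a2 and Col6a3 had log2 fold changes of 2.01 ± 0.20 and 1.66 ± 0.17 (edgeR FDR = 0.00385 for each). Col6a6 had 2.35 to 7.86 CPM in CAC mice and 8.19 to 21.5 CPM in AM mice (edgeR FDR = 0.0453). Col16a1 and Col11a2 rose as well, by 1.25 and 2.25 on the log2 scale (edgeR FDR = 0.00642 and 0.0104). Col23a1, a transmembrane collagen, had the least change of the 17, from 4.85 to 5.99 CPM to 7.52 to 9.38 CPM (edgeR FDR = 0.0394). Col6a6 and Col23a1 lost their calls without any mouse but CAC replicate 4 (FDR up to 0.122 and 0.106).

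**Figure D3:**
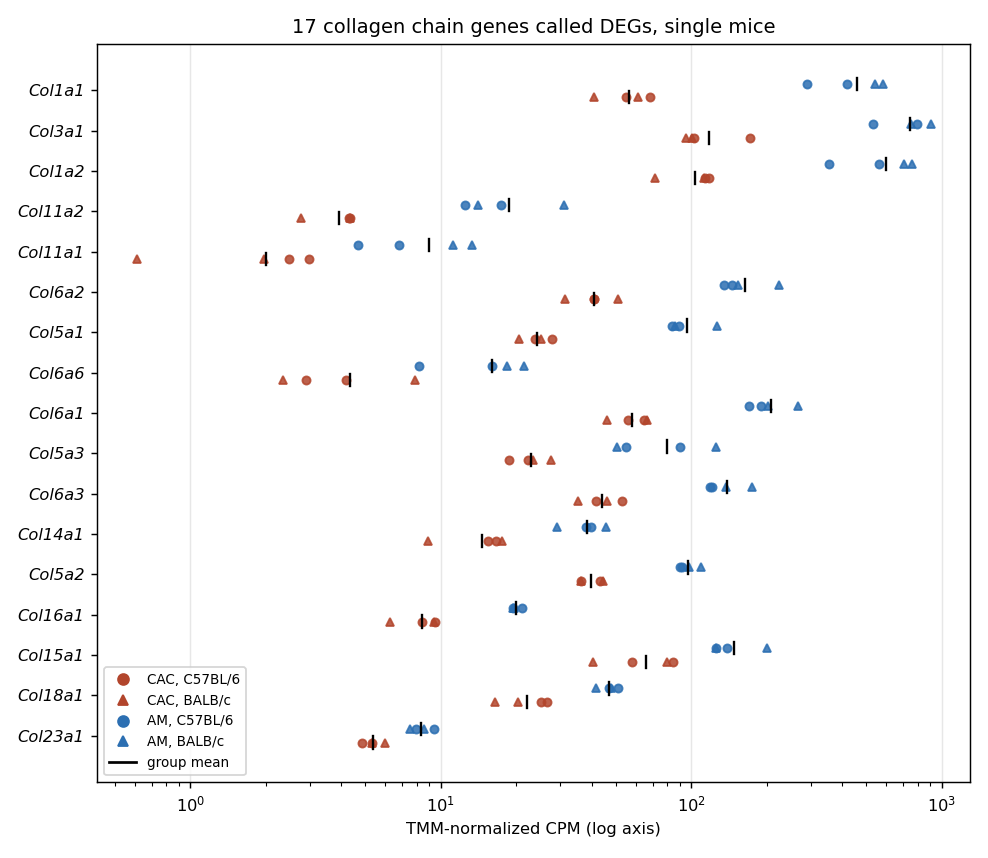
TMM-normalized CPM (log axis) of the 17 collagen chain genes called DEGs (rows) in single mice, with red for CAC, blue for AM, circles for C57BL/6, triangles for BALB/c and black bars for group means. In every row the 4 AM mice lie above the 4 CAC mice, and the type I and III chains Col1a1, Col3a1 and Col1a2 are the most separated of the abundant ones.

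Basement membrane components were higher in AM mice for 12 of 12 genes, with a median of 0.52, and 3 were upregulated DEGs, where 1.63% of all genes were. Col18a1, the source of endostatin, had 16.5 to 26.6 CPM in CAC mice and 41.5 to 50.8 CPM in AM mice (log2 fold change 1.08 ± 0.16, edgeR FDR = 0.0111). Nid2, a nidogen that bridges laminin and collagen IV, had 17.9 to 27.7 CPM in CAC mice and 40.8 to 50.6 CPM in AM mice (edgeR FDR = 0.0127), and Col15a1 had 40.7 to 84.8 CPM in CAC mice and 125 to 201 CPM in AM mice (edgeR FDR = 0.0407). Collagen processing and matrix proteins gave 9 upregulated DEGs of 23, beside the same 1.63%, and a median of 0.66. Adamts2, which trims procollagen, had 20, 21.2, 15.4 and 25.8 CPM in CAC mice and 48.6, 42.3, 52.4 and 47.1 CPM in AM mice (log2 fold change 1.21 ± 0.16, edgeR FDR = 0.00934). Loxl2, a lysyl oxidase that crosslinks collagen, had 19, 15.3, 15.3 and 22.8 CPM against 38.4, 39.5, 43.5 and 58.5 CPM (log2 fold change 1.31 ± 0.19, edgeR FDR = 0.0104). Fn1 (fibronectin) had 102 to 173 CPM in CAC mice and 257 to 331 CPM in AM mice (edgeR FDR = 0.0154). Fbn1 (fibrillin-1, of the microfibrils), which is outside the list, had 58.3, 51.3, 47.8 and 57.7 CPM against 136, 174, 149.9 and 176 CPM, with a log2 fold change of 1.56 ± 0.12 and an edgeR FDR of 0.00223. Serpinh1 (HSP47), the collagen chaperone, did not pass, with 39.9 to 54.9 CPM in CAC mice and 63.6 to 90.3 CPM in AM mice (edgeR FDR = 0.0559).

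Several of these calls were close to the limit. Col15a1 and Sparc lost theirs with any 1 of the 8 mice left out (FDR up to 0.101 and 0.096). Timp2 lost its call without any mouse but CAC replicate 2, Fmod without any but CAC replicate 3, and Loxl1, Bmp1 and Pcolce without any but CAC replicate 4 (FDR up to 0.0762, 0.0998, 0.0899, 0.104 and 0.104). The 9 collagen processing DEGs were 3 without CAC replicate 1, 3 without AM replicate 1 and 4 with the labelled strain as a term. Col18a1, Nid2, Adamts2, Loxl2, Fn1 and Fbn1 kept theirs.

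Of 8 tendon markers, 4 were upregulated, where 1.63% of all genes were, and 7 were higher in AM mice. The exception was Scx (scleraxis), a transcription factor that defines the tendon lineage, with a log2 fold change of -0.71 ± 0.22 (edgeR FDR = 0.11). The summed level of the 8 was 198.1 to 451.1 CPM in CAC mice and 570.6 to 829.4 CPM in AM mice, without overlap. Tnmd (tenomodulin), a defining gene of tendon cells, had 2.7, 2.65, 1.42 and 2.76 CPM in CAC mice and 10.9, 6.78, 18.5 and 17.2 CPM in AM mice (log2 fold change 2.49 ± 0.36, edgeR FDR = 0.0111). Comp, a matrix protein of tendon and cartilage, had 3.43 to 11.9 CPM in CAC mice and 18 to 44.1 CPM in AM mice (edgeR FDR = 0.026), and Cilp2 had 1.35 to 4.9 CPM in CAC mice and 8.13 to 26.8 CPM in AM mice (edgeR FDR = 0.0281). Fmod (fibromodulin) had 134, 143, 51 and 128 CPM against 288, 294, 354 and 246 CPM. Kera (keratocan), a small proteoglycan of the same family, had the largest log2 fold change among upregulated DEGs with a mean of at least 5 CPM over the 8 mice, at 1.35, 1.83, 0.237 and 1.06 CPM against 10.4, 6, 18.6 and 14.3 CPM (3.47 ± 0.60, edgeR FDR = 0.019). None of these markers was at 0 in a CAC mouse. The part of tendon tissue in the collagen differences was not tested. Comp lost its call without CAC replicates 2 or 4 or AM replicates 1, 2 or 3 (FDR up to 0.0693), Cilp2 without any mouse but CAC replicate 2 and AM replicate 2 (up to 0.0742), and Kera without CAC replicate 1 or AM replicates 3 or 4 (up to 0.059). Tnmd kept its call.

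Satellite cell markers also lay apart in their sums, at 122.5 to 166.1 CPM in CAC mice and 87.2 to 121.9 CPM in AM mice, but the members did not share a direction. Cdh15 and Sdc4 were lower in AM mice (log2 fold changes of -0.80 and -0.67), and 1 of 6 was called, beside 2.03% of all genes downregulated. The other 4, with Pax7, the defining factor of these cells, at 0.44, were higher, and the list median was 0.06. Their part in the results was not tested. The sums of the other cell type lists overlapped between groups. Macrophage markers were at 588.2 to 891.2 CPM in CAC mice and 515.7 to 773.7 CPM in AM mice, with 1 of 10 called, beside the same 2.03%: Itgam (CD11b) had 18.4 to 33.3 CPM in CAC mice and 8.11 to 13.2 CPM in AM mice (edgeR FDR = 0.0268), a call lost without any mouse but CAC replicates 2 and 4 (FDR up to 0.0769). Schwann cell markers were at 142.3 to 297.7 CPM in CAC mice and 279 to 598 CPM in AM mice. All 7 were higher in AM mice with a median of 0.81, 5 had an unadjusted edgeR p below 0.05, as had 9.47% of all genes in that direction, and their part in the matrix gene differences was not tested. The 1 upregulated, beside 1.63% of all genes, was Pmp2, a myelin protein, with 0.482 to 1.11 CPM in CAC mice and 1.99 to 3.6 CPM in AM mice (edgeR FDR = 0.0201), lost without CAC replicate 1 or AM replicates 1, 3 or 4 (FDR up to 0.0648). B cell, T cell, adipocyte, erythroid, endothelial, neutrophil and hepatocyte lists gave 0 DEGs. Of 7 hepatocyte markers tested 6 were higher in AM mice, the median was 4.04, and 11 more were below the count filter. In 5 the unadjusted edgeR p was below 0.05 in that direction, beside 9.47% of all genes. In 2 every AM mouse was above every CAC mouse, beside 6.19% of all genes. Without AM replicate 1 the log2 fold change of Alb was 3.80.

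The circadian clock runs in muscle as a loop of activators and repressors, and 4 of 19 clock genes were upregulated and 2 downregulated in AM mice, beside 1.63% and 2.03% of all genes. Nr1d1 (REV-ERB alpha), a repressor of the loop, had 119, 81, 90.9 and 132 CPM in CAC mice and 317, 373, 267 and 367 CPM in AM mice (log2 fold change 1.65 ± 0.19, edgeR FDR = 0.00552). It overlaps Thra on the genome, and strand use in counting is not given in the sources used here. Dbp, a clock output factor, had 21, 20.9, 6.57 and 17.6 CPM against 92.7, 110.3, 200 and 38.1 CPM (log2 fold change 2.74 ± 0.54, edgeR FDR = 0.0274). AM replicates 3 and 4 differed widely for it. Bhlhe41 and Bhlhe40 (DEC2 and DEC1), which repress through the E-box, had 15.5 to 24.1 CPM in CAC mice and 49.3 to 101 CPM in AM mice and 110.1 to 130.2 CPM in CAC mice and 189 to 265 CPM in AM mice, with log2 fold changes of 1.93 ± 0.24 and 0.99 ± 0.13 (edgeR FDR = 0.00759 and 0.00937). Rora, an activator that competes with REV-ERB, went down, with 135 to 165 CPM in CAC mice and 72.4 to 108 CPM in AM mice and a log2 fold change of -0.86 ± 0.14 (edgeR FDR = 0.0168). Nfil3, the repressor opposite Dbp, had 82.4, 99, 63.4 and 108 CPM against 10.1, 7.82, 17.9 and 49.3 CPM and did not pass (edgeR FDR = 0.0729), with AM replicate 4 highest among AM mice, and was called without that mouse. Dbp lost its call without any mouse but AM replicate 4 (FDR up to 0.0718), and Rora without CAC replicate 1 or AM replicates 1, 2 or 4 (up to 0.0586). Nr1d1, Bhlhe41 and Bhlhe40 kept theirs. The E-box CACGTG, chosen after the values were seen, was in the 250 bases before 5 of 16 clock genes with a sequence (31.2%) and in 6.86% of all promoters. Of the upregulated clock genes with a sequence, Bhlhe41 held 1 match and Dbp and Nr1d1 held 0.

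Genes of the channels and exchangers that amiloride or its analogs block gave 1 upregulated DEG of 16 tested, beside 1.63% of all genes, and 2 more, Scnn1g and Asic4, were below the count filter. Slc9a9, a sodium/proton exchanger of endosomes, had 3.37, 3.53, 4.24 and 2.95 CPM in CAC mice and 7.78, 7.35, 6.39 and 5.91 CPM in AM mice (log2 fold change 0.96 ± 0.18, edgeR FDR = 0.0224), and lost its call without CAC replicates 1 or 2 or AM replicates 1, 2 or 3 (FDR up to 0.0712). The list median was 0.03.

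Among the 12 largest rises of DEGs with a mean of at least 5 CPM over the 8 mice, Ky, a cytoskeletal protein needed for muscle growth, had 72, 99.3, 34.5 and 28.1 CPM in CAC mice and 303, 267, 456 and 361 CPM in AM mice (log2 fold change 2.57 ± 0.41, edgeR FDR = 0.0154). Nmrk2, a nicotinamide riboside kinase of muscle, had 8.93, 19.6, 8.52 and 37.3 CPM against 102, 105, 75.2 and 149 CPM (edgeR FDR = 0.0268). Kcng4, a modifier subunit of potassium channels, had 2.51 to 8.82 CPM in CAC mice and 18.7 to 63.3 CPM in AM mice (edgeR FDR = 0.0228). Cdh4 (R-cadherin) and Frzb, a secreted Wnt antagonist, had log2 fold changes of 2.40 ± 0.52 and 2.36 ± 0.40 (edgeR FDR = 0.0397 and 0.0177). The rest of these 12 were Col1a1, Col1a2, Col3a1, Dbp, Kera, Cilp2 and Tnmd, given above. Kcng4 lost its call without CAC replicates 1 or 4 or AM replicates 3 or 4, Nmrk2 without any mouse but CAC replicate 4, Cdh4 without any but AM replicate 2, and Frzb without CAC replicates 1 or 2 or AM replicate 4 (FDR up to 0.0717, 0.0738, 0.107 and 0.0582). Ky kept its call.

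Among the 12 largest falls chosen in the same way, Tfdp2, a partner of E2F factors, had 128, 107, 142 and 229.6 CPM in CAC mice and 40.4, 16.8, 24.7 and 40.7 CPM in AM mice (log2 fold change -2.31 ± 0.34, edgeR FDR = 0.012). Arrdc3, an alpha-arrestin, had 354, 236, 211 and 187 CPM against 34.5, 39.3, 51.8 and 76 CPM (log2 fold change -2.29 ± 0.30, edgeR FDR = 0.00937), with the 2 C57BL/6 mice lowest in AM. Fmo2, a flavin monooxygenase, had 215 to 359 CPM in CAC mice and 38.4 to 84.4 CPM in AM mice (edgeR FDR = 0.00921). Hif3a, a hypoxia-inducible factor, Vegfd, a lymphatic growth factor, and Doc2b, a calcium sensor of vesicle fusion, had log2 fold changes of -2.32 ± 0.49, -2.12 ± 0.40 and -2.07 ± 0.46 (edgeR FDR = 0.0347, 0.0254 and 0.0433). Tango2 was among the smallest FDR values, with 63.7, 57.2, 64.8 and 66.2 CPM against 27.7, 27.9, 30.2 and 23.2 CPM (log2 fold change -1.21 ± 0.10, edgeR FDR = 0.00223). Hif3a lost its call without any mouse but CAC replicate 3, Doc2b without any but AM replicate 2, and Vegfd without CAC replicates 1 or 3 or AM replicates 1, 3 or 4 (FDR up to 0.0948, 0.103 and 0.0774). Tfdp2, Arrdc3, Fmo2 and Tango2 kept theirs.

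**Figure D4:**
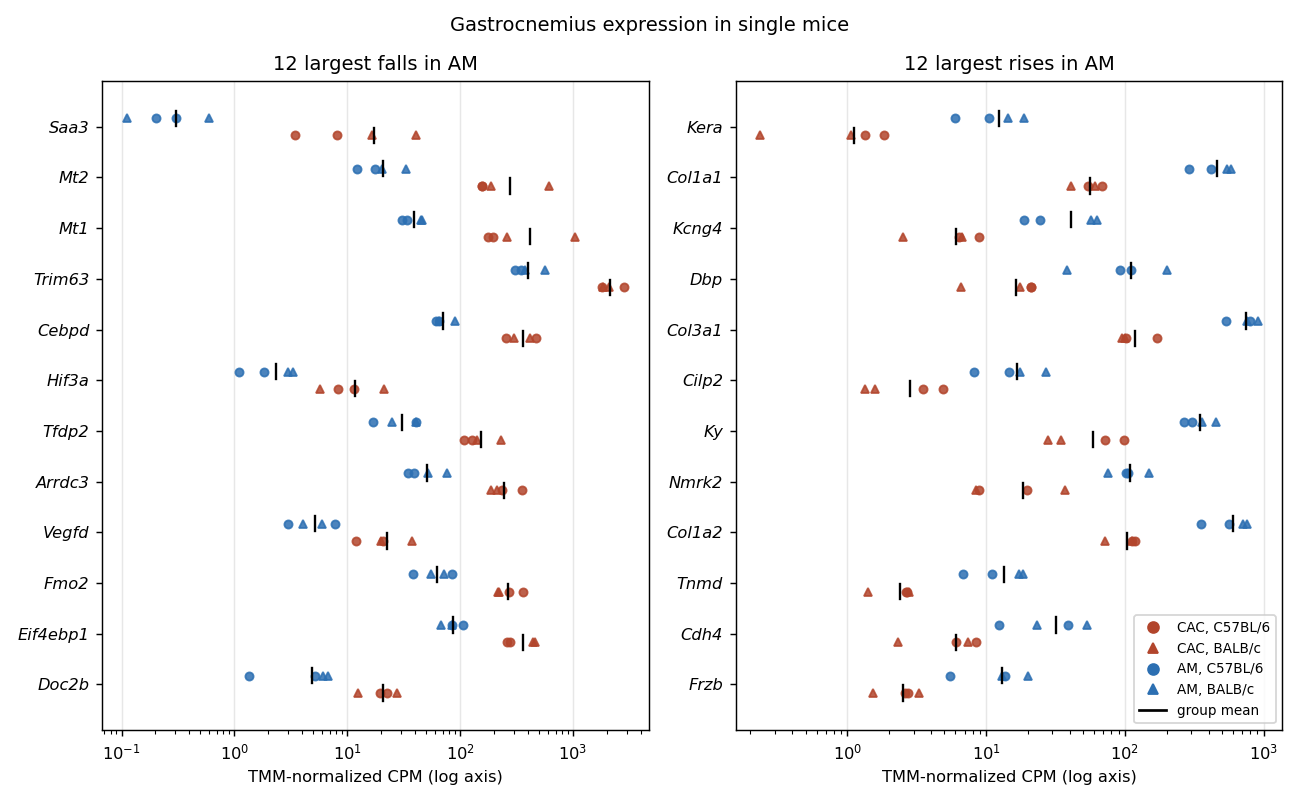
TMM-normalized CPM (log axis) in single mice of the 12 largest falls (left) and 12 largest rises (right) in AM mice among DEGs with a mean of at least 5 CPM over the 8 mice, with red for CAC, blue for AM, circles for C57BL/6, triangles for BALB/c and black bars for group means. Genes were named only where the groups did not overlap. CAC replicate 4 stands above the other CAC mice for Mt1 and Mt2.

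The labelled strains (with their tumor lines) were compared within the contrast, with 2 AM and 2 CAC mice each. The interaction of strain and treatment passed the FDR limit for 0 of 14674 genes in edgeR's test and had an unadjusted p below 0.05 for 1821 (12.4%). DESeq2 called 448 interactions, so the count depended on the tool, and the lack of calls in edgeR does not show that the strains responded alike. Strains are given as labelled, although Ifi202b, Gm11127 and Gm10260 set CAC replicate 4, AM replicate 1 and AM replicate 3 apart from the other 5 mice. Of the 15 rises among the 30 named genes 14 were larger in BALB/c mice, and of the 15 falls 7 were. The same share over all genes was not counted. The rises include collagen and tendon genes, and CAC replicate 3, a BALB/c mouse, was the lowest CAC mouse for Col1a2 and Tnmd. The part of that mouse in these counts was not tested. Ky rose by 1.75 in C57BL/6 and by 3.70 in BALB/c mice on the log2 scale. In CAC mice it was higher in C57BL/6 (72.0 and 99.3 CPM) than in BALB/c (34.5 and 28.1 CPM), and in AM mice it was lower in C57BL/6 (303 and 267 CPM) than in BALB/c (456 and 361 CPM). Without CAC replicate 4 and AM replicates 1 and 3, 1 AM mouse was left in each strain, at 267 and 361 CPM. Cilp2 rose by 1.39 and 3.86, and Kcng4 by 1.51 and 3.86. Among the falls, Arrdc3 had differences of -2.97 in C57BL/6 and -1.66 in BALB/c mice, and Eif4ebp1 had -1.51 and -2.58. In all, 9 of the 30 had an unadjusted interaction p below 0.05, and none passed the FDR limit.

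**Figure D5:**
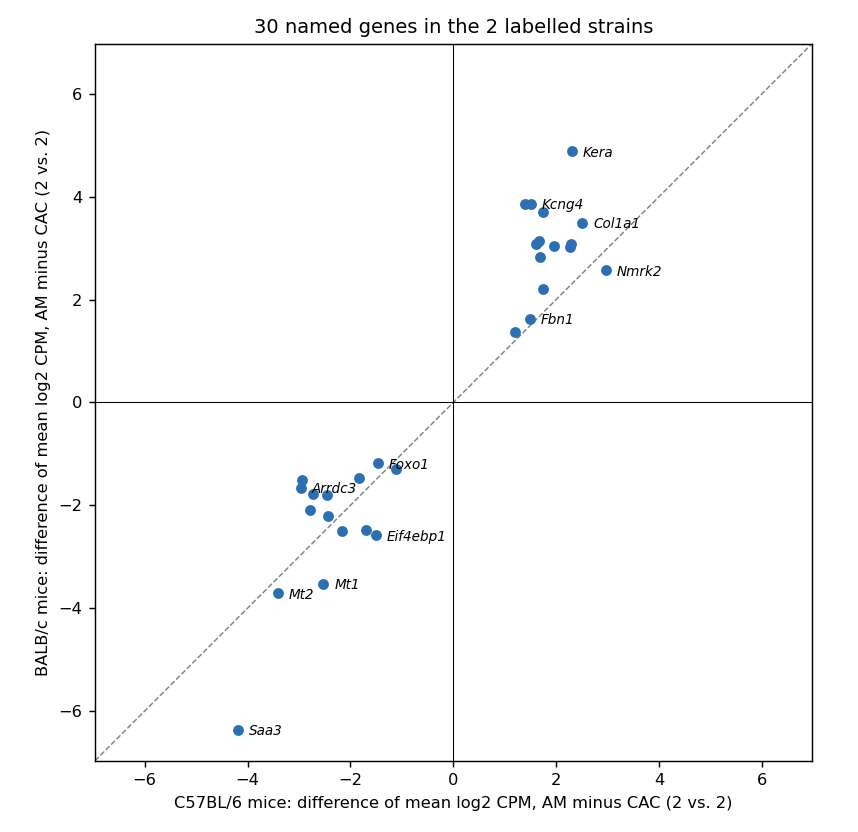
Difference of mean log2 CPM (AM minus CAC) in C57BL/6 mice (x axis) and BALB/c mice (y axis) for the 30 named genes, 2 against 2 mice on each axis, with a dashed line of equal differences. Genes were named only where both strains shared a sign, and 14 of 15 rises lie above the line. The same share over all genes was not counted.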

How the data were processed

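RNA from the gastrocnemius of 16 mice was enriched for poly(A) and sequenced by the authors, and the 8 AM and CAC libraries were used here. The deposited table holds whole-number read counts per gene, which the authors did not normalize, and FPKM values. The submitters' processing notes name fastp, Bowtie2, HISAT2, StringTie 1.3.1, mm9 and GRCm38, and the build and strand setting of the counts are not given in the sources used here.

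Counts were fitted with edgeR 4.0.16 (R 4.3.3; TMM, filterByExpr at 10 counts per gene and 15 in total, quasi-likelihood F test, no covariate), and 14674 of 21923 genes passed the filter. Adjustment followed Benjamini and Hochberg. The SE is the log2 fold change over the square root of F. The authors' NOISeq was not installed. Named were the 12 largest rises, the 12 largest falls and the 6 smallest FDR values of the rest, among DEGs with a mean of at least 5 CPM over the 8 libraries, no overlap between groups, 1 sign in both strains and a symbol that is no Gm number, Rik name or accession, beside list members and some genes chosen after their values were seen. The members and lists were chosen with earlier results of these data known. Pairs of libraries differed by at least 68.3 times the variance of counting alone. P-values measure the spread between these mice, which in the main fit includes the difference between the strains with their tumor lines.

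On simulated data, 71 of 100 genes changed 4-fold and 34 of 100 changed 2-fold were recovered in AM vs. CAC, over 14456 genes. Alternatives were other scalings, filters and fold limits, DESeq2 1.42.0, limma-voom, limma 3.58.1 on log2(FPKM + 0.1), the strain or replicate number as a term, all 16 libraries, each strain alone and each mouse left out. A lymphocyte score as a term and fits without CAC replicates 1 and 4, or CAC replicate 4 and AM replicates 1 and 3, were added after the data were seen. Positions are from GENCODE M21 (GRCm38) and promoters from RefSeq (GRCm38.p6).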

Additional observations from a re-analysis of the deposited data

Results flagged for a closer look

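In each group of 4 mice, the gap between the highest or lowest mouse and its nearest neighbour was set against the group's range, and a share above 0.829 was marked. This held for 21 of the 332 groups tested, and chance marks about 1 in 20. In CAC mice, replicate 4 stood above the rest for Mt2 (share 0.926, 609 CPM against 155 to 189), Mt1 (0.904, 1032 CPM against 178 to 259.8), Stat3 (0.856, 301 CPM against 149 to 171) and Ugp2 (0.881, 841 CPM against 728 to 741), and below the rest for Psmd8 (0.847, 212 CPM against 371 to 399) and Rpl21 (0.847, 2.31 CPM against 68.1 to 80). CAC replicate 3 was the low mouse for Col1a2 (0.879, 71.9 CPM against 112 to 117), Tnmd (0.915, 1.42 CPM against 2.65 to 2.76), Fmod (0.839, 51 CPM against 128 to 143) and Col11a2 (0.975, 2.76 CPM against 4.30 to 4.34). CAC replicate 1 was the high mouse for Col3a1 (0.907, 171 CPM against 95.5 to 102) and Myf6 (0.848, 326 CPM against 243 to 256).

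In AM mice, replicate 1 stood above the rest for Alb (0.989, 1280 CPM against 1.29 to 15.6), the summed hepatocyte markers (0.898, 2950 CPM against 124 to 413), Il6ra (0.868, 30.1 CPM against 18.4 to 20) and Col16a1 (0.868, 21.1 CPM against 19.4 to 19.6). AM replicate 4 stood above the rest for Cebpd (0.859, 89.4 CPM against 61.6 to 65.5), Col5a1 (0.869, 127 CPM against 83.6 to 89.3) and Myh1 (0.844, 4170 CPM against 3260 to 3410). AM replicate 2 was the high mouse for Rpl24 (0.86, 230.1 CPM against 208 to 211) and the summed adipocyte markers (0.879, 5177 CPM against 1384 to 1842).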

How the results depend on the processing

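Under RLE, upper-quartile and total-count scaling, limma-voom, limma on log2(FPKM + 0.1) and other count filters, both DEG counts stayed within 1.5 times 239 upregulated and 298 downregulated genes, and the median log2 fold change of all genes stayed between -0.055 and 0.053 over the 3 scalings. DESeq2 gave 640 upregulated and 479 downregulated genes, and 448 genes with a strain interaction where edgeR gave 0. With the labelled strain as a term 115 genes were upregulated, and with all 16 libraries in 1 fit 131 and 100 genes were up- and downregulated. A fold limit of 2 gave 158 and 112, and no fold limit gave 473 downregulated genes. With 1 mouse left out, counts were 61 (without CAC replicate 1) to 179 upregulated and 151 (without CAC replicate 1) to 268 downregulated. C57BL/6 mice alone, BALB/c mice alone, and the fit without CAC replicate 4 and AM replicates 1 and 3 gave 0 upregulated and 0 downregulated genes, with 2699, 1998 and 2450 genes at an unadjusted p below 0.05. Without CAC replicates 1 and 4, 7 and 11 genes were called. These 4 fits hold fewer mice, and other causes of the lower counts were not tested. With the replicate block, 0 and 0 genes were called and 2203 had an unadjusted p below 0.05. Deviations of same-numbered mice correlated at -0.44, 0.03, -0.51 and -0.32, so the numbers do not pair the mice. Signs turned for genes that were not DEGs: in C57BL/6 mice alone for Socs3 (0.35), Stat3 (0.028), Myh1 (-0.11) and Myh7 (-0.24), for Pdk4 with the lymphocyte term (0.11) and without CAC replicates 1 and 4 (0.36), and with 1 mouse left out for Myh7 (range -0.073 to 0.44), Myh2 (-0.13 to 0.47) and Myh1 (-0.056 to 0.23). The cause was not tested.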

Other observations

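Cytosolic ribosomal protein genes, gathered by symbol after the values were seen, were lower in AM mice for 77 of 78 members, with a median log2 fold change of -0.43 beside 0.007 for all genes. In 41 every AM mouse was below every CAC mouse (9.48% of all genes), 54 had an unadjusted p below 0.05 in edgeR's test (12.2% of all genes), and 5 were downregulated DEGs, beside 2.03% of all genes: Rps20, Rps25, Rps27, Rps27l and Rpl24. Rps27l and Rpl24 kept their calls with each mouse left out, Rps25 lost its call without AM replicate 3 (FDR = 0.0524), Rps20 without AM replicates 3 or 4 (up to 0.0679), and Rps27 without any mouse but AM replicate 1 (up to 0.123). Another 10 members, none of them a DEG, were lower in CAC replicate 4, AM replicate 1 and AM replicate 3 than in the other 5 mice, the split seen for Gm10260. Rpl21, 1 of these, had 70.3, 68.1, 80 and 2.31 CPM in CAC mice and 2.88, 57.2, 6.3 and 49 CPM in AM mice. Of the other 68 members 67 were lower in AM mice with a median of -0.42. Without the 3 libraries 77 of 78 were lower, and the median difference of mean log2 CPM was -0.42. Many of these genes have near-identical processed copies, so single values are uncertain.

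C1qtnf4, a secreted C1q/TNF-related protein, had 0 counts in all 4 CAC libraries and 255, 188, 300 and 222 counts in AM replicates 1 to 4 (5.98, 5.42, 6.43 and 4.95 CPM). NOR replicate 2 also had 0 counts, and the other 7 NOR and KD libraries had 192 to 491. Whether these 0 counts show absent transcripts or a failed count was not tested, so no fold is given. Adamts16, a metalloprotease, likewise had 0 CPM in all CAC mice and 0.633, 0.779, 0.471 and 0.647 CPM in AM mice. Both were chosen after their values were seen.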
